A study of Mus musculus with 4 samples.

Results

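Fragments of non-coding RNAs between 16 and 24 nt long were selected from small RNA libraries of mouse testis as the sequences that the deposited annotation puts in its class ncRNA and in that length range. They numbered 46554 distinct sequences of 4496542 in all, and 2316472 reads. The libraries came from total RNA of whole testes at postnatal day 16 (P16), 2 of wild-type (WT) mice and 2 of mice labelled as Hsf5 knockdown. Hsf5 encodes a transcription factor needed for meiosis in the male germ line. The deposited table calls the knockdown libraries knockouts, and the wording of the sample labels is kept here. The sources used here do not state how the knockdown was made, its degree or the strain of the mice, and the small RNA reads do not measure Hsf5 mRNA. Ligation of adaptors at either end of the RNA was followed by selection of inserts between 18 and 40 bases, so fragments of 16 and 17 nt lie below the stated range. The labels call the 2 libraries of a group biological replicates, and p-values measure only the spread between these samples.

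Ribosomes are built on 18S, 28S, 5.8S and 5S ribosomal RNA (rRNA), of which 5S rRNA is made by RNA polymerase III and the others are cut from a common precursor. Transfer RNAs (tRNAs) receive the bases CCA at their 3′ end after transcription, small nuclear RNAs (snRNAs) serve splicing, and small nucleolar RNAs (snoRNAs) guide the processing and modification of rRNA. Short pieces of all these RNAs arise by regulated cleavage or by breakdown, and a read does not tell which.

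The sequences that carried most of the reads, or that the comparison turns on, are printed here so that the position of each fragment in its parent RNA can be seen. Letters come from the GRCm39 genome, gene positions of named RNAs from GENCODE M39, and fragments from the deposited table, with T for U. In each parent the fragment stands in capitals. The 5S fragments are printed alone, with positions counted from the first base of the gene Rn5s, and their capitals mark bases past its annotated 3′ end. tRNA genes were found in the genome by sequence, since the annotation names none in the nucleus, and each is printed with the CCA tail behind the gene's own bases.
5S fragment of 16 nt from base 105: cgggtgctgtaggctT
5S fragment of 17 nt from base 104: ccgggtgctgtaggctT
5S fragment of 20 nt from base 101: ataccgggtgctgtaggctT
5S fragment of 23 nt from base 98: ggaataccgggtgctgtaggctT
5S fragment of 24 nt from base 96: tgggaataccgggtgctgtaggct
18S rRNA gene Rn18s-rs5, first bases, chr17:40157244-40157273, plus strand: TACCTGGTTGATCCTGCCagtagcatatgc
28S-type rRNA, a copy of group 1, chr1:167167857-167167904, minus strand: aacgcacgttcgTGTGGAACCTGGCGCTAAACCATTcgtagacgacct
28S-type rRNA, a copy of group 2, chr13:45023469-45023511, minus strand: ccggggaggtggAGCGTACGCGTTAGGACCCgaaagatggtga
tRNA-Cys gene, chr11:97660655-97660726, minus strand: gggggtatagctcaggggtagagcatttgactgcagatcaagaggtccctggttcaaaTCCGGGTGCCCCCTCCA
tRNA-Gln gene, chr11:95749998-95750069, minus strand: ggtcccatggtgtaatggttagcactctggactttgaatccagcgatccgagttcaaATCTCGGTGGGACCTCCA
tRNA-Ala gene, chr11:48725256-48725327, minus strand: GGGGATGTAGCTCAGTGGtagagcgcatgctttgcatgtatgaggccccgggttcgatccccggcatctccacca
initiator tRNA-Met gene, chr13:21895164-21895235, plus strand: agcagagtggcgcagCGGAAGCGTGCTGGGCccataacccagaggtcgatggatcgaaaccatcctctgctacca
tRNA-Pro gene, chr1:165469203-165469274, plus strand: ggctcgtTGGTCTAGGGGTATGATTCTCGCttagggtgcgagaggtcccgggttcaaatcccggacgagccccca
tRNA-Lys gene, chr11:48724710-48724782, minus strand: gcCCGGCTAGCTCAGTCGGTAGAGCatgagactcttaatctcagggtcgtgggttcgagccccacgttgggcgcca
U1 snRNA gene Rnu1a1, last bases, chr11:87313816-87313856, plus strand: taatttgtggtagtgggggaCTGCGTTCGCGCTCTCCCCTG
U3 snoRNA gene Snord3b1, inner bases, chr11:87334118-87334178, plus strand: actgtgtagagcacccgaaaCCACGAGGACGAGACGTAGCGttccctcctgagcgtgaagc
Snord14c, first bases, chr9:40714879-40714916, plus strand: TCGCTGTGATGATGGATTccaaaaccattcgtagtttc
Y3 RNA gene Rny3, first bases, chr6:47758558-47758598, plus strand: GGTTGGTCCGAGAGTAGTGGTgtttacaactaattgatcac
a dispersed repeat, chr1:3699414-3699461, minus strand: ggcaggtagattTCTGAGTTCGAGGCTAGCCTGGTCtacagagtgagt

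Fragments of the class took 7.07% and 5.91% of all counted reads in WT 1 and 2, and 8.09% and 1.88% in knockdown 1 and 2. This order of libraries is kept for all values below. The knockdown libraries lay on either side of the wild-type pair, with 1 of them far below the rest: the wild-type mean was 6.49% ± 0.822 and the knockdown mean 4.98% ± 4.39 (SD, n = 2 each; exact two-sided permutation p = 1). With 2 libraries against 2 the test cannot give a p below 0.333, and this holds for every permutation test here. The libraries held 11117460, 9260452, 9619666 and 10900306 counted reads, of which 786308, 547344, 777745 and 205075 were members. At this depth counting error is small (95% Wilson interval of knockdown 2, 1.87% to 1.89%), and a count of 0 allows up to 0.324 reads per 1000000 in the shallowest library. PCR copies are not independent molecules, so intervals and floors cover counting error only.

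Knockdown 2 was not low in the longer reads of the same class. Reads of 25 to 47 nt took 8.80%, 4.03%, 4.40% and 5.08% of counted reads, so that knockdown 2 lay above WT 2 and knockdown 1. Within all reads of 16 to 24 nt, on the other hand, members took 16.7%, 15.04%, 15.2% and 6.28%. Reads outside the ncRNA class also held few of the shortest lengths in that library: 16 to 19 nt reads were 4.96%, 5.54%, 9.91% and 1.27% of them. Among reads of the miRNA class the same lengths took 1.08%, 1.53%, 1.73% and 1.004%. Knockdown 2 was lowest in both, by a wide gap in the first and a narrow gap among miRNA reads. The part of read lengths in the level of the fragments was not tested. In whole testis, fewer cells of a type and less RNA per cell cannot be told apart either. Summed miRNA markers of other cells differed far less than the fragments: those of red blood cells stood at 39.8, 38.0, 53.1 and 32.02 reads per 1000000, those of pachytene spermatocytes at 845, 1173, 1238 and 1197, and those of Sertoli and other somatic cells at 8606, 7552, 9389 and 8201.

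The members were a few abundant fragments over a wide base of rare ones. The strongest sequence held 3.19% of member reads, the strongest 10 held 17.5% and the strongest 1000 held 61.8%. In all 4 libraries 10437 sequences were found, with 88.8% of the reads, while 16867 sequences occurred in 1 library and held 1.21%. All members matched GRCm39 exactly, 9718 of them at 1 place. Of the reads, 97.6% were given to a parent RNA and 1.94% to dispersed repeats, and 0.465% stayed unassigned. Sequences of multicopy RNAs cannot be given to 1 gene copy, so levels below are sums over the copies of a parent. Levels are reads per 1000000 counted reads of the library (RPM), and are not divided by the length of the parent, so they rank fragments and not parent RNAs.

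rRNA gave 84.0% of member reads, from 26269 sequences, with 5S rRNA at 32.4%, 28S-type rRNA at 29.4% and 18S rRNA at 22.2%. tRNA fragments followed at 6.10%, snRNA at 1.99%, dispersed repeats at 1.94%, snoRNA at 1.85% and 7SL RNA, the RNA of the signal recognition particle, at 1.58%. Genes of the annotation type misc_RNA without a family name gave 1.35%, and the remaining subclasses under 0.5% each. Of the 12 subclasses with at least 0.1% of member reads, 11 had a lower mean RPM in the knockdown, and in none did the groups separate (exact permutation p = 1 for each of the 13 subclasses, adjusted p = 1). Knockdown 2 was the lowest library in every subclass but the dispersed repeats. Its distance from the rest was unequal: the lowest of the other libraries was 6.05 times as high for 28S-type rRNA, 5.78 times for 18S rRNA and 5.53 times for 7SL RNA, but 1.88 times for 5S rRNA and 1.30 times for misc_RNA genes.

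**Figure D1:**
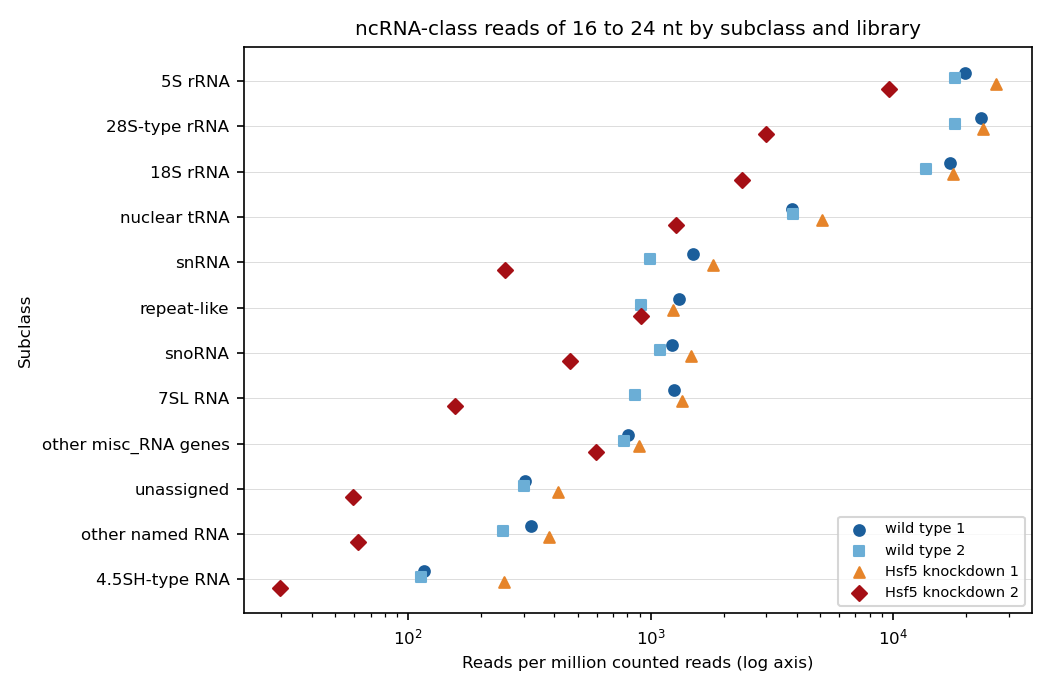
Reads per 1000000 counted reads (log axis) of each ncRNA subclass at 16 to 24 nt, with 1 point per library. Knockdown replicate 2 sits lowest in every subclass except the dispersed repeats, and the knockdown pair spans the wild-type pair in nearly all of them.

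The make-up of the class differed in the same library. 5S rRNA made up 28.1%, 30.6%, 33.0% and 51.2% of member reads, and 18S with 28S-type rRNA 56.7%, 53.8%, 51.0% and 28.5%. Per read of 5S rRNA there were 2.02, 1.76, 1.55 and 0.557 reads of 18S and 28S-type rRNA. Both libraries of the knockdown were lower than either wild-type library (1.89 ± 0.181 against 1.05 ± 0.702, exact permutation p = 0.333, the smallest possible), with knockdown 1 much nearer to the wild type than to knockdown 2.

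Fragment lengths differed more between libraries than between groups. The mean length was 20.6, 19.9, 19.6 and 20.8 nt (20.3 ± 0.469 in the wild type, 20.2 ± 0.826 in the knockdown, exact permutation p = 1). Knockdown 1 had the shortest fragments and knockdown 2 the longest: reads of 16 to 18 nt were 25.2%, 35.1%, 40.2% and 22.9% of members, and those of 22 to 24 nt 42.4%, 32.1%, 27.6% and 46.1%. The same order held within 5S rRNA, where 16 to 18 nt took 38.6%, 50.2%, 53.98% and 24.97%. For 5S rRNA the low level of knockdown 2 lay in the shorter fragments. At 16 to 18 nt its fragments stood at 7689, 9067, 14381 and 2405.5 RPM, and at 22 to 24 nt at 5956, 3588, 4381.5 and 4301 RPM, where knockdown 2 lay within the range of the others. 18S rRNA did not share this: at 22 to 24 nt it stood at 8164, 5279, 5923 and 1198 RPM. 28S-type fragments of the same lengths stood at 11488, 7264, 8464 and 1442.5 RPM.

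**Figure D2:**
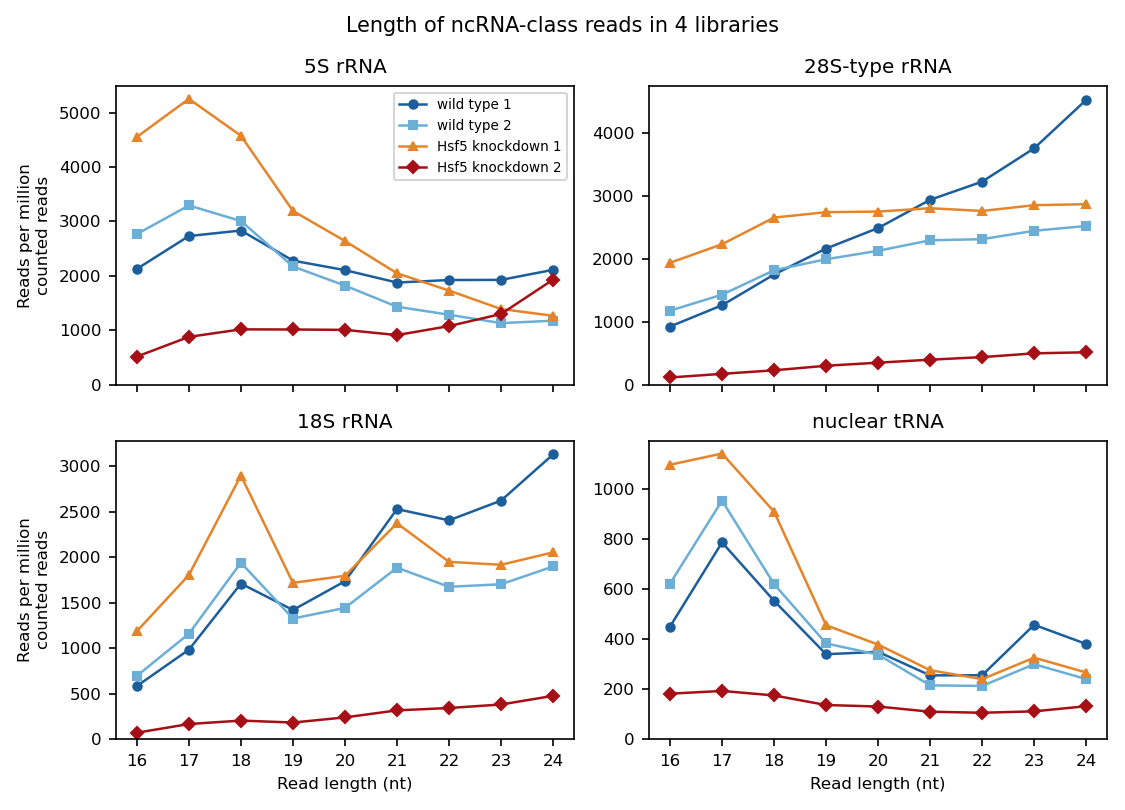
Reads per 1000000 counted reads of members by fragment length in nt, with 1 line per library. Knockdown replicate 2 is low at 16 to 18 nt in every subclass drawn, and reaches the range of the other libraries at 22 to 24 nt in 5S rRNA.

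Fragments of 5S rRNA came almost only from the 3′ end of the molecule. The gene Rn5s is 119 nt long, and 92.8%, 94.8%, 94.6% and 96.4% of its reads, 56 sequences, reached the last bases. Of 5S reads, 17.7% ended at the annotated last base, 45.2% at 1 base past it and 31.5% at 2 bases past it. The extra bases are T, as in the printed 17-mer, and RNA polymerase III ends its transcripts in a run of U. The 5S genes are repeated, with 32 identical to Rn5s over their whole length, and the printed 17-mer has 57 exact places in the genome.

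The place where these fragments began differed between libraries. Starts at base 104, which give the strongest member of all, stood at 3548, 4105, 6530.1 and 1037 RPM. Starts at base 106 stood at 639.8, 786, 1197 and 59.5 RPM, a larger gap to knockdown 2. Starts at base 96 went the other way, at 449.7, 255, 252 and 871 RPM, with knockdown 2 the highest library. Among the reads that reach the 3′ end, starts at bases 96 to 98 made up 18.3%, 11.3%, 8.95% and 34.7%. The knockdown libraries were the lowest and the highest of the 4 (14.8% ± 4.92 in the wild type, 21.8% ± 18.2 in the knockdown, exact permutation p = 1).

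**Figure D3:**
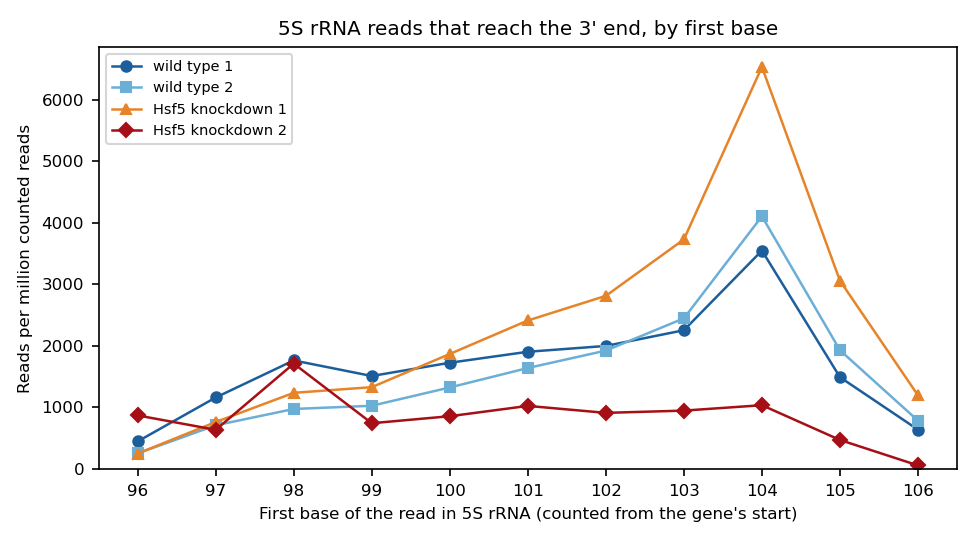
Reads per 1000000 counted reads of 5S rRNA fragments that reach the 3′ end, by their first base in Rn5s, with 1 line per library. Starts peak at base 104 in the wild type and in knockdown replicate 1, and knockdown replicate 2 has its highest value at base 98.

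Single 5S sequences showed the same shift with length. The 17-mer from base 104 stood at 1615, 2027, 3302 and 493 RPM, and the 16-mer from base 105 at 833, 1162, 1936 and 267 RPM. The 20-mer from base 101 stood at 898, 835, 1269 and 503 RPM. In these 3, knockdown 1 was the highest and knockdown 2 the lowest library. The 23-mer from base 98 stood at 812, 482, 613.5 and 794 RPM, with no library apart. The 24-mer from base 96 stood at 449, 254.5, 252 and 870.4 RPM, highest in knockdown 2. None differed between the groups by edgeR's quasi-likelihood test (log2 knockdown over wild type from -0.16 to 0.57 over these 5, adjusted p = 1 for each).

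18S rRNA was covered almost end to end. Fragments began at 1600 positions of Rn18s-rs5 (chr17:40157244-40159092, plus strand, 1849 nt), and 99.3% of its bases were covered. Windows of 100 bases held from 0.311% to 14.6% of its reads, and the strongest were bases 1701 to 1800 (14.6%) and 1 to 100 (14.4%). Most of the first window began at base 1, the 5′ end of mature 18S rRNA. Reads with that start stood at 1354, 1653, 2614 and 203 RPM, and all other 18S reads at 14801, 11333, 14126 and 2074 RPM. The share of base 1 was 8.38%, 12.7%, 15.6% and 8.92% of 18S reads, so the libraries of each group differed as much as the groups (exact permutation p = 0.667). The strongest 18S fragment, the printed 18-mer from base 1, stood at 672, 890.5, 1479 and 67.3 RPM. Reads that ended at the last base of the gene were far fewer, at 32.2, 37.6, 75.2 and 7.98 RPM.

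**Figure D4:**
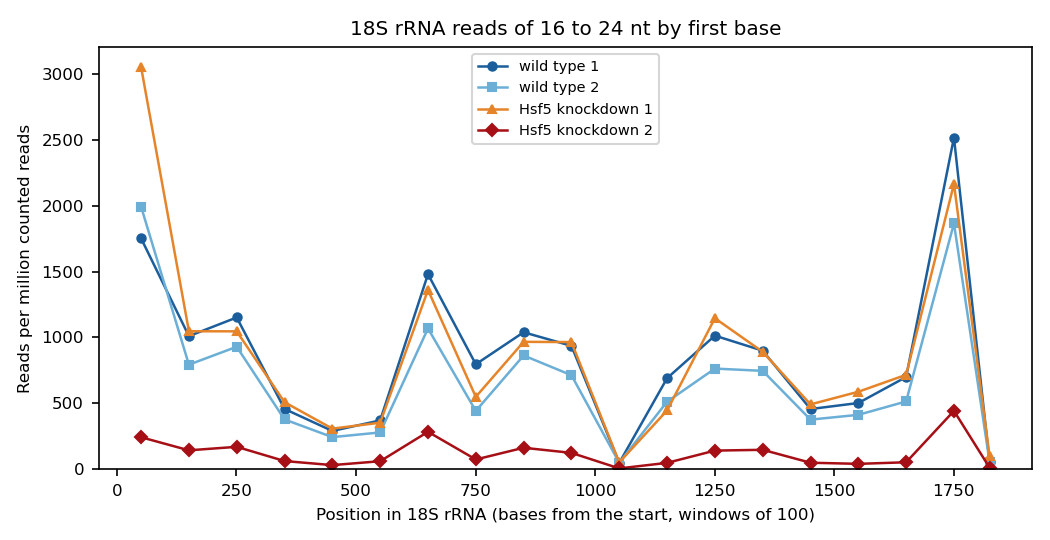
Reads per 1000000 counted reads of 18S rRNA fragments by the window of 100 bases of Rn18s-rs5 in which they begin, with 1 line per library. The windows at bases 1 to 100 and 1701 to 1800 are the strongest, and knockdown replicate 2 is lowest in each window.

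28S-type rRNA has no gene in the annotation used, and its fragments were gathered from copies of it that lie scattered in the genome. Letters of these copies were recognised as 28S rRNA from general knowledge of that RNA, and they are called 28S-type for that reason. Group 1, of 86 copies, stood at 16795, 12990.0, 16850.3 and 2219 RPM, and group 2, of 34 copies, at 4746, 3917, 5119 and 569.7 RPM. In both, knockdown 1 was the highest library and knockdown 2 the lowest, and the groups overlapped. Their strongest fragments differed in how the wild-type libraries compared: the 24-mer of group 1 stood at 644, 216, 251 and 15.9 RPM, while the 19-mer of group 2 stood at 70.5, 50.9, 95.3 and 7.16 RPM. No fragment dominated, since the strongest 10 held 5.89% of group 1 reads and 10.8% of group 2 reads, against 53.5% for 5S rRNA.

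tRNA fragments fell into 3 kinds by their place in the tRNA. Those inside the molecule held 52.6% of tRNA reads, at 1928, 1892, 2633 and 930.6 RPM. Those that end in the complete CCA tail held 23.3%, at 876, 997, 1266.5 and 166 RPM, with a mean length of 17.3 nt. Fragments from the 5′ end held 22.1%, at 945, 917, 1083 and 167 RPM. The remaining 1.96% ended within or just before the CCA tail. These shares hold within the class, which held 15.2% of the reads equal to a CCA end. In each kind knockdown 2 was the lowest library and knockdown 1 the highest, and the lowest of the other libraries was 2.03 times knockdown 2 for inside fragments against 5.28 times for CCA ends and 5.48 times for 5′ ends.

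The kinds were split by amino acid. Within the class, tRNA-Cys was the strongest, at 708, 788, 807 and 126 RPM, and 81.7% of its reads were CCA ends. A single 17-mer, printed above, held 59.4% of tRNA-Cys reads, at 436, 511, 441 and 54.9 RPM. It had 1 exact place in the genome, the end of a tRNA-Cys gene on chromosome 11 that is followed by the letters CCA. With the CCA tail added, 7 tRNA-Cys genes end in this sequence, so a read cannot be given to 1 of them. The 3 other libraries lay close together, and knockdown 2 below them. tRNA-Gln stood at 444, 464, 733 and 168 RPM, with 53.2% of its reads CCA ends. Within the class, tRNA-Ala gave nearly only 5′ ends (95.5%), at 314, 367, 362 and 79.4 RPM in all. Of reads equal to a CCA end, the class held 98.2% of those of tRNA-Cys. Of those of tRNA-Ala, 77.0% were in the SINE class, so these kinds and ranks hold for the class only. The strongest tRNA-Gln and tRNA-Ala fragments had 93 and 158 exact places in the genome, against 9 and 10 matching tRNA genes. For these the sequence does not tell a read of a tRNA from a read of another place. tRNA-Glu stood at 488, 462, 464 and 223 RPM and tRNA-Gly at 446, 402.5, 595 and 166 RPM, both mainly from inside the molecule (95.7% and 86.4%). tRNA-Ser stood at 169, 160.4, 210.1 and 15.2 RPM, 95.1% of it 5′ ends, the widest gap between knockdown 2 and the next library among these (10.5 times).

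tRNA-Met stood out by its level in knockdown 1. In RPM the groups did not overlap for 3 of 20 tRNAs, all lower in the knockdown: tRNA-Pro, tRNA-Ile and tRNA-Thr. By the scaled counts of the test below, 11.7% of all parents tested lay lower in both knockdown libraries. tRNA-Met fragments stood at 113, 141, 473 and 102 RPM, so knockdown 1 lay far above the 3 other libraries. Its strongest fragment, the 16-mer from base 16 of the initiator tRNA, which starts translation, stood at 36.7, 74.5, 254 and 57.5 RPM. tRNA-Pro fragments stood at 140, 100, 73.4 and 28.4 RPM, with no overlap between the groups (120.0 ± 28.3 against 50.9 ± 31.8, exact permutation p = 0.333). The printed tRNA-Pro 23-mer had 116, 72, 16 and 13 reads, and the printed tRNA-Lys 23-mer 82, 55, 11 and 4 reads, each lower in both knockdown libraries. tRNA-Lys as a whole stood at 207, 255.7, 319 and 88.7 RPM, where the groups overlapped. tRNA-Ile stood at 7.47, 6.80, 6.45 and 1.28 RPM, lower in both knockdown libraries but by a narrow margin in the first. The same held for tRNA-Thr, at 28.3, 23.65, 23.29 and 13.4 RPM. tRNA-His stood at 72.6, 84.6, 97.6 and 64.95 RPM.

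Among snRNAs, U1, which recognises the 5′ splice site, stood at 770, 536, 1088 and 78.8 RPM, and 53.2% of its reads ended in its last bases. The printed U1 21-mer stood at 143, 116, 194 and 9.36 RPM. U2, which pairs with the branch point, stood at 473, 269.7, 442 and 96.6 RPM, without a preferred end (the commonest start held 4.38% of reads). U5 stood at 146, 118, 156 and 42.7 RPM, and U6 at 62.2, 42.9, 66.01 and 18.4 RPM. U7, which serves the 3′ processing of histone mRNA, was rare, at 5.76, 4.21, 11.6 and 2.02 RPM. Knockdown 2 was the lowest library for each, and the groups overlapped in all 5.

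U3, which guides cleavage of the rRNA precursor, gave 87.7% of the snoRNA reads of the class. U3 stood at 1076, 956, 1268 and 421 RPM, and 47.9% of its reads began at base 76. Its strongest fragment, the printed 21-mer from that base, stood at 363, 388, 451 and 209 RPM and held 37.9% of U3 reads. Knockdown 2 was lowest. The next library was 2.27 times as high, against 6.80 times for U1. Snord14 stood at 80.6, 84.8, 137 and 22.3 RPM, and 87.7% of its reads began at its first base. Snord118 stood at 42.6, 29.9, 41.7 and 16.6 RPM and Snord13 at 18.4, 16.0, 20.5 and 5.32 RPM, and 90.6% of Snord13 reads ended in its last bases.

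7SL RNA stood at 1252, 858, 1343 and 155 RPM, spread over 258 start positions. Knockdown 2 was the lowest library, and knockdown 1 the highest. 7SK RNA, which holds back the elongation factor P-TEFb, stood at 192, 157, 251 and 27.9 RPM over 263 start positions. Of the Y RNAs, which bind the Ro60 protein, Rny3 stood at 94.7, 65.01, 99.1 and 22.7 RPM and Rny1 at 33.6, 24.3, 30.2 and 11.4 RPM. Rny3 fragments began at the first base in 44.3% of reads, and the printed 21-mer stood at 18.1, 14.4, 14.03 and 9.27 RPM.

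**Figure D5:**
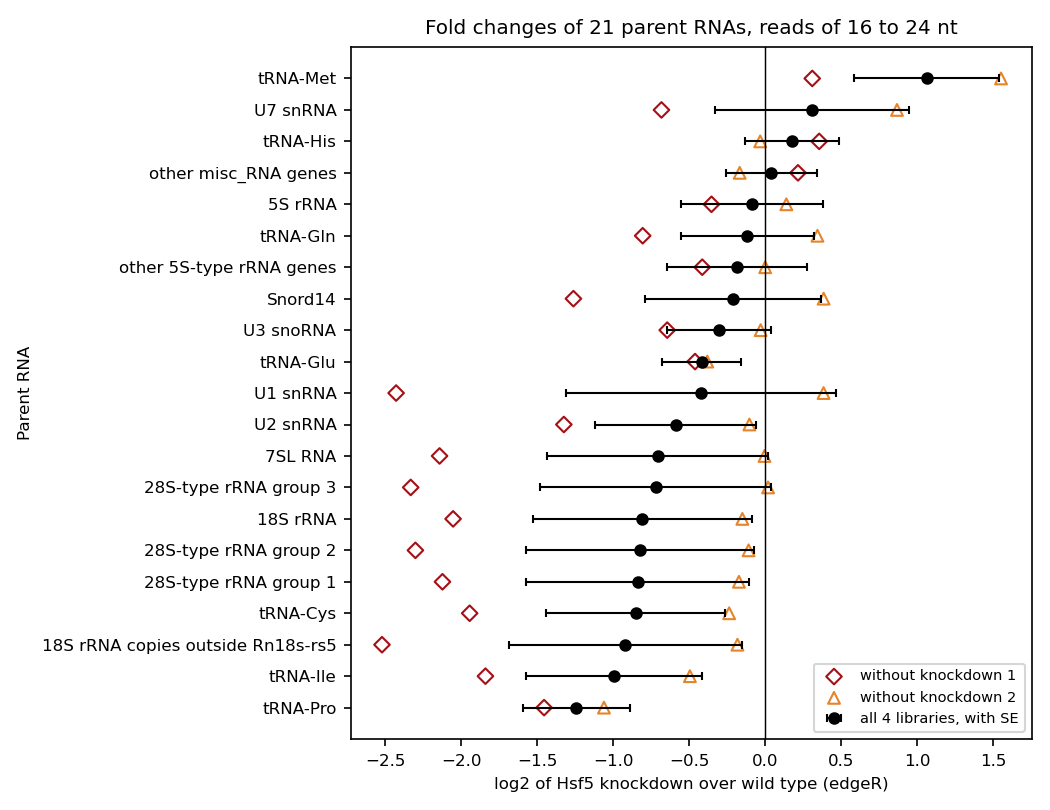
Fitted log2 of Hsf5 knockdown over wild type (edgeR) of the named parent RNAs of members. Filled points with SE bars use all 4 libraries, and open symbols leave out knockdown replicate 1 or 2. With all 4 libraries, tRNA-Met has the highest value (1.06) and tRNA-Pro the lowest (-1.24).

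In repeat sequences knockdown 2 did not stand apart as it did in the structural RNAs. Dispersed repeats, members with more than 100 places in the genome and no other parent, stood at 1312, 916, 1243 and 916.5 RPM, and no library lay apart. The printed repeat fragment, a 24-mer with 1027 places, stood at 349, 163, 155 and 231.5 RPM. Misc_RNA genes without a family name stood at 808, 776, 897 and 596 RPM. Their strongest fragment, a 16-mer with 90778 places, stood at 85.5, 162, 153 and 144 RPM, and at so many places the sequence does not tell a read of the gene from a read of a repeat. Fragments of 4.5SH-type RNA, a rodent RNA made by RNA polymerase III and recognised by sequence, stood at 116, 113, 247 and 29.5 RPM. Mitochondrial RNA gave 43.8, 39.3, 48.9 and 7.98 RPM.

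The knockdown was tested against the wild type by parent RNA with edgeR's quasi-likelihood test on raw counts, over all parent names of every class at 16 to 24 nt, 2026 in all. No parent of the class passed an adjusted p of 0.05, in either direction, as for all parents (0% of 2026 called). Of the 52 member parents 49 were tested, 11 with a higher and 38 with a lower fitted value in the knockdown, with a median log2 of -0.42 against -0.02 over all parents tested. Fitted values use counts per 1000000 after scaling (CPM). In this fit by parent they are counted per read of 16 to 24 nt, while RPM is per counted read of every length. Reads of 16 to 24 nt numbered 4723330, 3638880, 5117943 and 3265751, so this CPM raises knockdown 2 relative to RPM. An unadjusted p under 0.05 was found for 1 member parent with edgeR and for 2 with DESeq2, of which none was called by either tool. tRNA-Pro had the lowest p among lower parents (log2 -1.24, SE 0.354, edgeR unadjusted p = 0.017, adjusted p = 0.9997), and tRNA-Met among higher ones (log2 1.06, SE 0.478, edgeR unadjusted p = 0.0764, adjusted p = 0.9997). The next in each direction were tRNA-Ile (-0.9957) and tRNA-Glu (-0.42), and tRNA-His (0.18) and U7 (0.31).

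The largest parents had wide errors. 5S rRNA had a log2 value of -0.08 (SE 0.468), 28S-type group 1 -0.84 (SE 0.735), 18S rRNA -0.81 (SE 0.720), U3 -0.30 (SE 0.343), 7SL -0.71 (SE 0.728) and U1 -0.42 (SE 0.887). On the CPM scale the knockdown pair was entirely below the wild-type pair for 11 of the 49 parents, and that held for 11.7% of all parents tested. These were 28S-type groups 4 and 5, Rny1, mt-Rnr2 and the tRNAs for Ala, Asp, Cys, Glu, Ile, Pro and Thr. Both lay above for 1, tRNA-Met, against 9.72% of all parents. On that scale tRNA-Met stood at 272, 327, 879 and 372 CPM and tRNA-Pro at 337, 232, 136 and 104 CPM. Knockdown 2 was the lowest library for 44 of 49 on the CPM scale (37.9% of all parents tested) and for 49 of 49 in RPM, a scale on which it was lowest for 64% of all parents tested.

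By family, all 4 spliceosomal snRNAs tested (U1, U2, U5 and U6, of 8 listed) had lower fitted values, with a median log2 of -0.46. The listed U4 had no gene family in the matching, so its reads could not be counted under that name. The C/D box snoRNAs had 4 of 71 tested, all lower (median -0.31), and the H/ACA box snoRNAs 1 of 39, Snora73 (0.04). Both Y RNAs were lower (median -0.49). Of 20 nuclear tRNAs by amino acid, 6 were higher and 14 lower (median -0.28). These directions describe fitted values, of which none passed the test. Vault RNA, telomerase RNA, the RNAs of RNase P and RNase MRP and the small Cajal body RNAs had no read in the class.

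The test by sequence gave no call either. Of the members, 8043 passed 1 CPM in at least 2 libraries and entered a fit of 103209 sequences of every class and length, in which 0 passed an adjusted p of 0.05 (0%). Of these, 7408 had a lower and 635 a higher fitted value, with a median log2 of -0.84 against -0.18 over all sequences. At an unadjusted p under 0.05 there were 14 members with edgeR and 11 with DESeq2, all lower in the knockdown, and DESeq2 called 0. Lowest in p among these were the printed tRNA-Lys 23-mer (log2 -3.34), the printed tRNA-Pro 23-mer (-2.84) and a tRNA-Pro 24-mer with 1 more base (-2.82), each with an edgeR adjusted p of 1. Among higher members they were a repeat 21-mer (log2 2.07), a tRNA-Leu 18-mer (2.99) and an 18-mer of initiator tRNA-Met (1.92), again with an adjusted p of 1. The repeat 21-mer had 5, 7, 16 and 39 reads and the tRNA-Leu 18-mer 0, 4, 25 and 11. Both passed the filter through the knockdown libraries alone, so their higher values were fixed by the filter. The median log2 of tested members went from -0.29 at 16 nt to -1.201 at 24 nt. A member that passed the filter through 1 group alone had to differ, so these medians describe the members that passed and not the class.

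Each knockdown library alone gave a different picture, and these fits assume that the lone library varies like the wild-type pair. With knockdown 2 as the only knockdown library, 11 of 49 member parents fell (of all parents tested, 1.42% were called lower, 0.405% higher and 1.82% in either direction): tRNA-Ser, 18S rRNA and its copies outside Rn18s-rs5, 28S-type groups 1, 2, 3 and 5, tRNA-Cys, U1, 7SL and 7SK (edgeR adjusted p from 0.0239 to 0.0487). By sequence, 3111 of 6364 members were lower and 0 higher, against 9.5% of all sequences called lower, 0.88% higher and 10.4% in either direction. These included 54.2% of the 28S-type, 52.7% of the 18S, 41.3% of the 5S and 24.1% of the tRNA sequences tested. With knockdown 1 as the only knockdown library, 1 member parent was called, tRNA-Met, which rose (log2 1.55, edgeR adjusted p = 6.16e-06; of all parents, 0.303% were called higher, 3.54% lower and 3.84% in either direction). The median log2 of tested member parents was -1.19 with knockdown 2 alone and -0.03 with knockdown 1 alone. By sequence, 20 of 8008 members were higher and 9 lower, against 0.188% and 15.5% of all sequences (15.7% in either direction). Of the 20, 5 were overlapping pieces of initiator tRNA-Met. The median log2 of tested member sequences was -3.06 with knockdown 2 alone and 0.09 with knockdown 1 alone. With knockdown 1 alone, 28 of the 49 parents had a fitted value below 0 and 21 above. Their median of -0.03 was near that of all parents tested (-0.02). Of the parents named for a low p, tRNA-Pro stood at -1.06 and tRNA-Glu at -0.38 in that fit.

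The class did not hold all reads of its parent RNAs. For 16 to 24 nt reads of every class that match the same genes, the ncRNA class held 99.4% of those of 5S rRNA, 99.9% of 18S, 99.5% of 7SL, 100% of 7SK, 99.8% of U1 and 99.2% of the Y RNAs. U3 kept 82.1%. The rest were largely elsewhere: the class held 7.64% of reads of the other C/D box snoRNAs, 1.196% of H/ACA box snoRNAs, 0.724% of mitochondrial tRNAs and 2.27% of mt-Rnr2, the large mitochondrial rRNA. It held 0% of RNase P, RNase MRP and mt-Rnr1 reads. Of tRNA reads it held 97.6% of their other fragments but 15.2% of sequences equal to a CCA end. In all classes together, those sequences stood at 5970.2, 5722, 8564.5 and 1336 RPM, several times the level within the class, again highest in knockdown 1 and lowest in knockdown 2. By amino acid, 98.2% of CCA ends of tRNA-Cys were in the class, while 77.0% of those of tRNA-Ala were in the SINE class and 99.8% of those of tRNA-Tyr in the LTR class. Such repeats can carry tRNA-like letters, and the sequence alone does not tell which of them a read came from.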

How the data were processed

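Small RNA reads of 4 libraries were analysed from 1 table deposited by the authors, which gives raw read counts per distinct sequence and library, the length of the sequence, an annotation class and a scaling factor per library. The submitters' processing notes name cutadapt, which trims adaptors, and the build mm39, without saying how each was used. Which aligner was run, with how many mismatches, and how classes were ranked is not given in the sources used here. Each line, under no header, names its library, which was matched to the sample labels. A sequence with several annotations stands on several lines with the same count, so 6491165 repeated lines were left out. The deposited scaling factor, a ratio made by the authors, was used only as an alternative. The table gave no subclass for this class. Members were therefore matched exactly to GRCm39, on either strand, and given to genes of GENCODE M39 (up to 6 bases past a 3′ end), to 379 tRNA genes found by sequence, to copies of 28S-type and 18S rRNA (dense runs of members joined with blastn 2.17.0), or, above 100 places, to dispersed repeats. Unnamed genes joined a named family at 80% identity over 80% of the length. Names of 28S-type and 4.5SH-type RNA rest on reading their sequence. Reads were scaled per 1000000 counted reads. Counts were tested with edgeR 4.0.16 (quasi-likelihood, robust, TMM) in R 4.3.3, with features at 1 CPM or more in at least 2 libraries and Benjamini-Hochberg adjustment over all features. DESeq2 1.42.0 was an alternative. Single values were compared by exact two-sided permutation over the 6 assignments. Alternatives covered scaling, filter, minimum length (18 nt), names as deposited (by parent RNA), sequences counted once, other denominators, a replicate block and each library left out. On simulated data with the fitted biological coefficient of variation (0.855 for sequences, 0.489 for parents) the test recovered 0% of 4-fold changes in either. With a coefficient of 0.2 it recovered 57% among 103209 sequences and 81% among 2026 parents. Libraries of a group differed beyond sampling noise (chi-square per degree of freedom 5.09 in the wild type, 22.9 in the knockdown).

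The members, lists and tests were chosen with earlier results of these data known. Named were subclasses with at least 0.1% of member reads, and the 10 strongest parents, the 2 strongest of each large subclass and the 3 of lowest p in each direction. Named sequences were the 10 strongest, and the strongest by subclass, parent and length, and the 3 of lowest p in each direction. Other parents and sequences in the text, among them further tRNAs, Snord118, Snord13, 7SK and the Y RNAs, come from the family lists or were added after their values were seen.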

Additional observations from a re-analysis of the deposited data

How the results depend on the processing

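No sequence and no parent RNA of the class was called under any scaling, filter or length tried, by edgeR or DESeq2. Names as deposited in each library were tried by parent RNA, again without a call. They do not enter the fit by sequence. Leaving out 1 library in turn gave 0 to 3111 called sequences and 0 to 11 called parents, with calls only where a knockdown library was left out (29 sequences and 1 parent without knockdown 2). The labels give both groups the numbers 1 and 2, but not what a number shares. With the replicate number as a block, calls stayed at 0 for sequences and 0 for parents, and 24 and 5 members had an unadjusted edgeR p under 0.05. Deviations of same-numbered libraries had a correlation of -0.06 over member sequences and 0.24 over member parents, and of 0.34 and 0.31 over all sequences and parents tested. The share of members in all reads had a log2 of -0.38, and -1.79 to 0.32 when 1 library was left out. The count of 11 lower subclasses became 6 per member read, and 0 to 12 with 1 library left out. The mean length difference of -0.06 nt was 0.0519 with each sequence counted once and -0.65 to 0.52 with 1 library left out.

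Directions of small differences turned. Scaled by the deposited factor, misc_RNA genes went to -0.28 and tRNA-His to -0.16, and at 18 to 24 nt misc_RNA genes went to -0.10. Per member read, 5S rRNA was 0.52, nuclear tRNA 0.12 and snoRNA 0.27, and tRNA counted once per sequence was 0.0733. With 1 library left out, the fitted log2 ranged for parents from -0.35 to 0.14 (5S), -0.17 to 0.22 (misc_RNA genes), -2.33 to 0.0195 (28S-type group 3), -2.43 to 0.38 (U1), -0.41 to 0.0004 (other 5S-type genes), -0.81 to 0.34 (tRNA-Gln), -1.26 to 0.39 (Snord14), -0.0324 to 0.36 (tRNA-His) and -0.68 to 0.87 (U7). For RPM of subclasses it ranged from -0.98 to 0.49 (5S), -2.78 to 0.20 (28S-type), -2.70 to 0.20 (18S), -1.60 to 0.40 (tRNA), -2.31 to 0.53 (snRNA) and -1.31 to 0.35 (snoRNA). CCA ends of tRNAs had a log2 of -0.39 in the class and -0.24 over all classes, an alternative chosen after seeing the data. In all these the cause was not tested. With 2 libraries a group, 1 of them far from the rest, only differences well above their spread could be called.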

Other observations

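Small structural RNAs that the deposited annotation mostly puts elsewhere were read at 16 to 24 nt over all classes. C/D box snoRNAs without U3 stood at 1702, 1517, 1899 and 731 RPM, and H/ACA box snoRNAs at 188, 139, 217 and 129 RPM. mt-Rnr2, the large mitochondrial rRNA, stood at 1903, 1326, 1741 and 383 RPM, and mitochondrial tRNAs at 666, 408, 919 and 394 RPM. The small Cajal body RNAs, which guide the modification of snRNAs, stood at 127, 128, 178 and 150.2 RPM. Knockdown 2 was the lowest library in the first 4 of these sets, by an amount that differed widely between them, and lay above both wild-type libraries in the small Cajal body RNAs. Of the reads of that last set, 84.6% were in the miRNA class, and those outside it stood at 24.8, 19.55, 35.9 and 10.4 RPM, lowest in knockdown 2 as in the other sets. The sets were read after the members, and their groups were not tested.

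The shares of tRNA fragments that begin with A, C or G did not overlap between the groups. Fragments that begin with C took 14.7%, 16.2%, 22.6% and 22.1% of tRNA reads (wild type 15.4% ± 1.05, knockdown 22.4% ± 0.350, exact permutation p = 0.333, the smallest possible). Those that begin with G took 30.9%, 29.1%, 26.9% and 20.6%. The strongest initiator tRNA-Met fragment itself begins with C. Without it the share that begins with C was 13.9%, 14.55%, 18.6% and 18.5%, and without any tRNA-Met fragment it was 13.04%, 13.9%, 16.6% and 17.02%, so the gap between the groups narrowed but they did not overlap. Both alternatives were chosen after seeing the data. The shares for C and G come from a set that took every first base among all members and the 5S, 28S-type, 18S and tRNA fragments. With 2 libraries against 2, a fraction of 0.333 of the assignments leaves the groups apart, and no adjusted p could pass. In that set the groups also did not overlap for A among all members and for G among 18S and among 28S-type fragments. They overlapped for all its other shares. Shares within a subclass depend on each other, so these are not separate results.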
